A study of Homo sapiens with 6 samples.

Results

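The genes described here are 10 serpin protease inhibitors, SERPINB3, SERPINB4, SERPINB1, SERPINB5, SERPINB6, SERPINB8, SERPINB9, SERPINA1, SERPINE2 and SERPINH1, picked by gene name from a table of 38170 annotated features. The choice was made with results of the same comparison known, and SERPINB3 was among the genes with a large change in it. The differences of the 10 genes between the groups are therefore given as a description, without printed p-values. Where one of them is said to pass or miss a threshold, this describes the fit and is no independent evidence. The cells were A549, a line of human lung adenocarcinoma, and their RNA was sequenced in 3 libraries with LOC401312, a long non-coding RNA overexpressed from a piggyBac transposon, and in 3 libraries with an empty vector. Both groups were otherwise kept in the same culture medium, and piggyBac inserts its cargo into the genome. The sources used here do not say whether a line was 1 clone or a pool, or whether libraries came from separate cultures. The p-values thus measure the spread between these 6 libraries, and that spread may be technical.

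An inhibitory serpin offers an exposed loop as bait to a protease. When the protease cuts the loop, the serpin refolds and holds the protease in a dead covalent complex, so each inhibitor molecule is used once. Clade B serpins stay mostly inside the cell, where they protect it from its own lysosomal or granule proteases, while clades A, E and F are mainly secreted into plasma and the extracellular space. SERPINH1, also called HSP47, inhibits no protease and is a chaperone of collagen in the endoplasmic reticulum.

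SERPINB3 and SERPINB4, the squamous cell carcinoma antigens, are neighbouring copies on chromosome 18 that are known to inhibit different proteases. SERPINB3 inhibits cysteine cathepsins such as cathepsins L and S, and SERPINB4 inhibits serine proteases such as cathepsin G. The sequences of the pair are shown because their near identity limits how reads can be divided between them. The longest coding transcripts held 1173 coding bases each, of which 56 differed (4.77%). In the 60 bases at positions 952 to 1011 of the coding sequence, 10 bases differed (16.7%), which are in capitals below. Both stretches are on the minus strand of GRCh38, at chr18:63655819-63655878 for SERPINB3 and chr18:63637881-63637940 for SERPINB4, in the transcripts of GENCODE v29.
SERPINB3: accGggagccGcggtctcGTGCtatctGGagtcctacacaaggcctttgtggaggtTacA
SERPINB4: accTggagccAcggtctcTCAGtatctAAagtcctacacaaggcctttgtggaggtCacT
Elsewhere the copies are closer. Of all stretches of 50 bases in the SERPINB3 transcript, 23.9% occurred unchanged in that of SERPINB4, against 3.4% of stretches of 100 bases and 0% of stretches of 150 bases. The sources used here give no read length, and the counts of both genes are reported as uncertain in their division.

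The promoters of the pair were still more alike. The 250 bases before each start differed at 3 positions, in capitals below, an identity of 98.8%. They are RefSeq sequences of GRCh38.p14 on the minus strand, at chr18:63661894-63662143 for SERPINB3 and chr18:63644257-63644506 for SERPINB4.
SERPINB3: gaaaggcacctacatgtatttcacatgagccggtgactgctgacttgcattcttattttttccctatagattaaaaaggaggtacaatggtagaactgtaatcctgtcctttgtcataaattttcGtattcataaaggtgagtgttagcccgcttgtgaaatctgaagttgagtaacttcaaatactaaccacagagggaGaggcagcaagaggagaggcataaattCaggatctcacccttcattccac
SERPINB4: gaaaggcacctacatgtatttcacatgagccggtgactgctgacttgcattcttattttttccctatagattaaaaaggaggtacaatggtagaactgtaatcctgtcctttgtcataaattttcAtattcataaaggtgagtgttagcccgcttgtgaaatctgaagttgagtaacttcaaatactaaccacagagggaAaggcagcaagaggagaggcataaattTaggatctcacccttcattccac
The windows were searched on both strands for 4 short motifs. They were an AP-1 motif (TGANTCA), a STAT motif (TTCNNNGAA), a pair of heat shock units (TTCNNGAA) and a TATA box (TATAAA). Neither SERPINB3 nor SERPINB4 held any of them, which says only that these letters are not in the 250 bases. Of 35116 promoters, 6.6% held each of the first 3 motifs and 10.7% the TATA box. The AP-1 motif occurred before SERPINB5 and SERPINB8, and the STAT motif before SERPINB1 and SERPINB8. The TATA box occurred before SERPINB8 and SERPINB9, and the heat shock pair before 1 of 2 starts of SERPINH1 and 1 of 4 starts of SERPINB6.

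The libraries held 65823845 to 70202062 counts for LOC401312 and 60971105 to 73994619 counts for vector. The STEAP1B entry, which overlaps LOC401312, held 94628, 92527 and 90297 counts in LOC401312 libraries, against 9, 11 and 23 counts in vector libraries. For LOC401312 replicates 2 and 3 the genotype label reads LOC401313 and LOC401314, against the title, and the title was followed. LOC401312 replicates 2 and 3 stood apart by transcripts of trophoblast, with 105.7 and 90.59 CPM (counts brought to a common library total with TMM) summed over 11 markers, against 2.155 CPM in LOC401312 replicate 1 and 1.589 to 2.208 CPM in vector. Vector replicate 1 stood apart by 4 haematopoietic markers, with 14.8 CPM, against 0.165 to 0.425 CPM in LOC401312 and 0.179 and 0.636 CPM in the other vector libraries. Markers of the A549 line summed to 19200 to 19880 CPM in LOC401312 and 20220 to 21660 CPM in vector. That gap lay in AKR1B10, AKR1C1, AKR1C2 and ALDH1A1, the 4 of the 10 that passed as lower. KRT19 passed as higher, and the 5 that did not pass, EPCAM, KRT7, KRT8, KRT18 and VIM, had slightly higher means in LOC401312. Squamous epithelium is a known site of SERPINB3 and SERPINB4. Its 12 markers in the table summed to 14.74 to 16.74 CPM in LOC401312 and 19.03 to 23.82 CPM in vector, and 3 of them, SPRR1B, SPRR2A and S100A7, were at 0 in all libraries. Markers of urothelium summed to 7.24 to 8.60 CPM in LOC401312 and 12.13 to 16.38 CPM in vector. KRT13, counted in both the squamous and the urothelial sum, carried much of either gap, at 0.0236 ± 0.0409 CPM in LOC401312 and 4.48 ± 0.219 CPM in vector (SD, n = 3 each). Markers of fibroblasts and endothelium summed to 16.56 to 17.25 CPM in LOC401312 and 23.95 to 32.13 CPM in vector, a gap that lay in COL1A1, at 12.1 ± 0.790 CPM in LOC401312 and 23.4 ± 1.5 CPM in vector, while the other 4 did not pass the test. Of those others, LUM and DCN were highest in vector replicate 1, at 4.67 and 2.76 CPM, while PECAM1 and CDH5 were not. LUM had 0.418 and 0.797 CPM in the other vector libraries and 1.60 to 2.52 CPM in LOC401312. DCN had 0.519 and 0.959 CPM in the other vector libraries and 1.06 to 1.73 CPM in LOC401312. POSTN, outside this list, had 9.12 CPM in vector replicate 1, against 0.0567 to 0.439 CPM elsewhere. In bulk RNA, fewer cells of a type and less RNA per cell cannot be told apart.

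Of 19620 features tested with edgeR's quasi-likelihood test, 8.72% passed an adjusted p of 0.05, 4.13% higher and 4.58% lower in LOC401312. Among the serpins chosen, 9 were tested, and 3 of them, SERPINB3, SERPINB4 and SERPINE2, passed as higher in LOC401312, 6 did not pass and 0 passed as lower. As the serpins were chosen with results known, these counts cannot be weighed against the shares over all features. SERPINB5 had too few counts to test. The median log2 change of the 9 was 0.11 and that of all tested features was -0.000665. In 4 of the 9, SERPINB3, SERPINB4, SERPINE2 and SERPINB1, all LOC401312 libraries lay above all vector libraries, as in 14% of all tested features, and in 0 of them was the order reversed (13.9% of all). The member past the threshold with the smallest log2 change was SERPINE2, at 0.14, and the next below it that did not pass was SERPINH1, at 0.11.

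**Figure D1:**
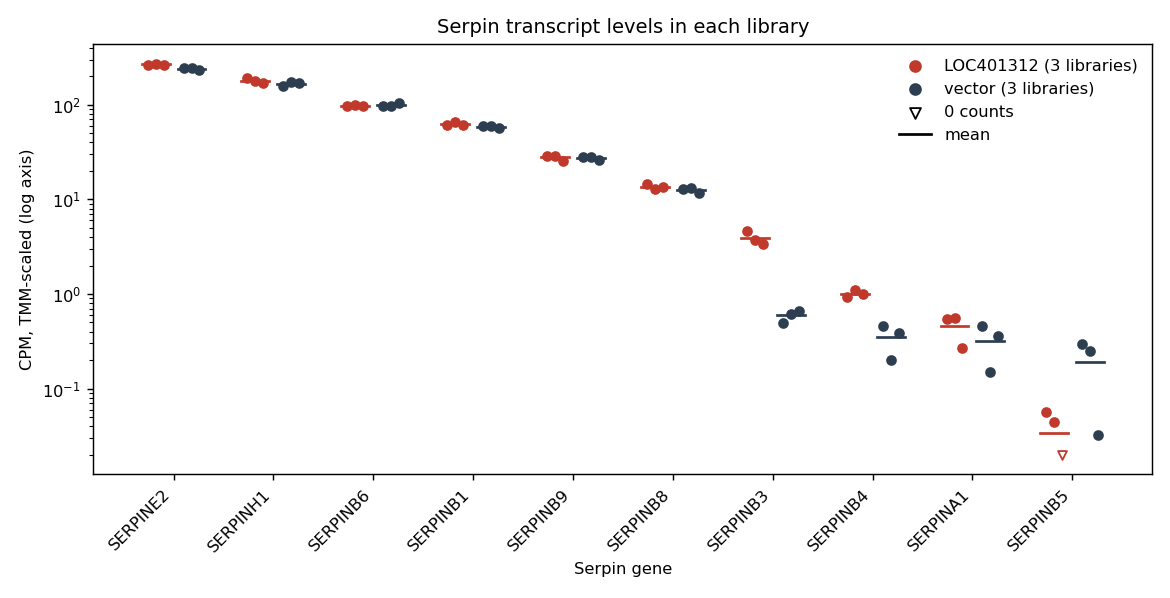
CPM of each serpin in each library on a log axis, LOC401312 in red left of vector in dark blue, with a bar at the group mean and an open triangle, placed at the foot, for 0 counts. SERPINB3 and SERPINB4 are separated between groups, at means of 3.94 and 1.01 CPM in LOC401312 against 0.595 and 0.350 CPM in vector, while the more abundant SERPINH1, SERPINB6, SERPINB1, SERPINB9 and SERPINB8 lie at nearly the same height in both.

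SERPINB3 (ENSG00000057149; chromosome 18, 63655197 to 63661893, minus strand) had the largest change of the 9 tested. It had 328, 257 and 228 counts in LOC401312 libraries, against 37, 37 and 41 counts in vector libraries. In CPM these were 4.65, 3.77 and 3.42 in LOC401312 and 0.498, 0.619 and 0.667 in vector. The lowest LOC401312 library was above the highest vector library, and the highest of all was LOC401312 replicate 1, the library without the trophoblast transcripts. The means were 3.94 ± 0.636 CPM in LOC401312 and 0.595 ± 0.0868 CPM in vector (SD, n = 3 each), a log2 change of 2.73 (SE 0.231; 95% interval 2.22 to 3.24), or 6.63-fold. With LOC401312 replicate 1 alone against the vector libraries, a fit of 1 against 3 libraries in which 175 features passed, the log2 change was 2.97, and without vector replicate 1 it was 2.61.

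SERPINB4 (ENSG00000206073; chromosome 18, 63637259 to 63644256, minus strand) was lower in level than SERPINB3 in both groups. It had 66, 75 and 66 counts in LOC401312 libraries, against 34, 12 and 24 counts in vector libraries, or 0.936, 1.10 and 0.989 CPM against 0.458, 0.201 and 0.390 CPM. The groups did not overlap, and the vector libraries varied more than the LOC401312 libraries. The means were 1.01 ± 0.0834 CPM in LOC401312 and 0.350 ± 0.133 CPM in vector (SD, n = 3 each), a log2 change of 1.51 (SE 0.387; 95% interval 0.65 to 2.38), or 2.86-fold. The gene fell short of the threshold without any 1 library other than vector replicate 1, with log2 changes of 1.24 to 1.59, and with LOC401312 replicate 1 alone (1.41).

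Summing the pair removes the uncertainty of which copy a read was assigned to. It does not recover reads that were dropped for fitting both copies or correct reads counted at both, and the counter is not named. The sum was 394, 332 and 294 counts in LOC401312 libraries, against 71, 49 and 65 counts in vector libraries, a log2 change of 2.39 (SE 0.195), and the groups did not overlap. SERPINB11, on the opposite strand, spans SERPINB3, and its own entry held 7, 0 and 0 counts in LOC401312 libraries and 0, 0 and 7 counts in vector libraries. No source used here gives the strand setting of the counting.

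SERPINE2, or protease nexin-1, is a secreted inhibitor of thrombin, urokinase and plasmin. It (ENSG00000135919; chromosome 2, 223975045 to 224039290, minus strand) was the most abundant of the 10 in counts. It had 18459, 18620 and 17760 counts in LOC401312 libraries, against 18220, 14640 and 14441 counts in vector libraries. In CPM these were 261.7, 272.9 and 266.1 in LOC401312 and 245.3, 244.9 and 234.8 in vector. The groups did not overlap, but by a narrow margin. The means were 266.9 ± 5.64 CPM in LOC401312 and 241.7 ± 5.96 CPM in vector (SD, n = 3 each), a log2 change of 0.14 (SE 0.038; 95% interval 0.06 to 0.23), or 1.10-fold. The gene fell short of the threshold without any 1 library other than vector replicate 1 (0.12 to 0.16). The median log2 level of the 780 chromosome 2 genes that averaged 4 CPM or more differed by -0.25 between LOC401312 and vector, and with chromosome medians removed SERPINE2 had a log2 change of 0.39, against 0.14 in the same limma fit without the removal.

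The other serpins of good depth changed by little. SERPINB1, which inhibits neutrophil elastase, cathepsin G and proteinase 3, had 61.75, 65.77 and 61.12 CPM in LOC401312 libraries, against 59.28, 59.40 and 56.21 CPM in vector libraries. The groups did not overlap, the log2 change was 0.11 (SE 0.049) and the gene did not pass. SERPINH1, the collagen chaperone, had 192.0, 179.3 and 168.9 CPM in LOC401312 libraries, against 158.7, 173.1 and 168.7 CPM in vector libraries. LOC401312 replicate 3 lay among the vector libraries, and the log2 change was 0.11 (SE 0.054; 95% interval -0.01 to 0.23).

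Next to SERPINB1 on chromosome 6 lie SERPINB9, the inhibitor of granzyme B that shields cells from cytotoxic lymphocytes, and SERPINB6, an inhibitor of trypsin-like proteases and cathepsin G. SERPINB9 had 29.02, 28.96 and 25.65 CPM in LOC401312 libraries, against 27.79, 28.25 and 26.36 CPM in vector libraries, with a log2 change of 0.02 (SE 0.071; 95% interval -0.14 to 0.18). SERPINB6 had 96.84, 99.61 and 98.17 CPM in LOC401312 libraries, against 96.31, 97.15 and 104.5 CPM in vector libraries, with a log2 change of -0.02 (SE 0.045; 95% interval -0.12 to 0.09). The groups overlapped for both, and the sign of each turned under some settings.

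SERPINB8, which inhibits the proprotein convertase furin, lies on chromosome 18 beyond SERPINB3. It had 14.49, 12.90 and 13.48 CPM in LOC401312 libraries, against 12.98, 13.35 and 11.56 CPM in vector libraries. The groups overlapped, and the log2 change was 0.11 (SE 0.093; 95% interval -0.10 to 0.32). Its span overlaps HMSD on the same strand, an entry of 4 to 51 counts per library, a small part of the 711 to 1022 counts of SERPINB8. FURIN itself did not pass the test (log2 change 0.14, adjusted p = 0.0872).

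A pair of well-known serpins was near the limit of detection. SERPINA1, alpha-1 antitrypsin, the main plasma inhibitor of neutrophil elastase, had 38, 38 and 18 counts in LOC401312 libraries, against 34, 9 and 22 counts in vector libraries. The groups overlapped, and the log2 change of 0.49 (SE 0.539) had a 95% interval of -0.71 to 1.69. Neither a rise nor a fall within that interval can be told from no change at this depth. SERPINB5, or maspin, an epithelial serpin not known as a protease inhibitor in cells, had 4, 3 and 0 counts in LOC401312 libraries, against 22, 15 and 2 counts in vector libraries. LOC401312 replicates 1 and 2 both lay above vector replicate 3, so the groups overlapped, and no fold is given.

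**Figure D2:**
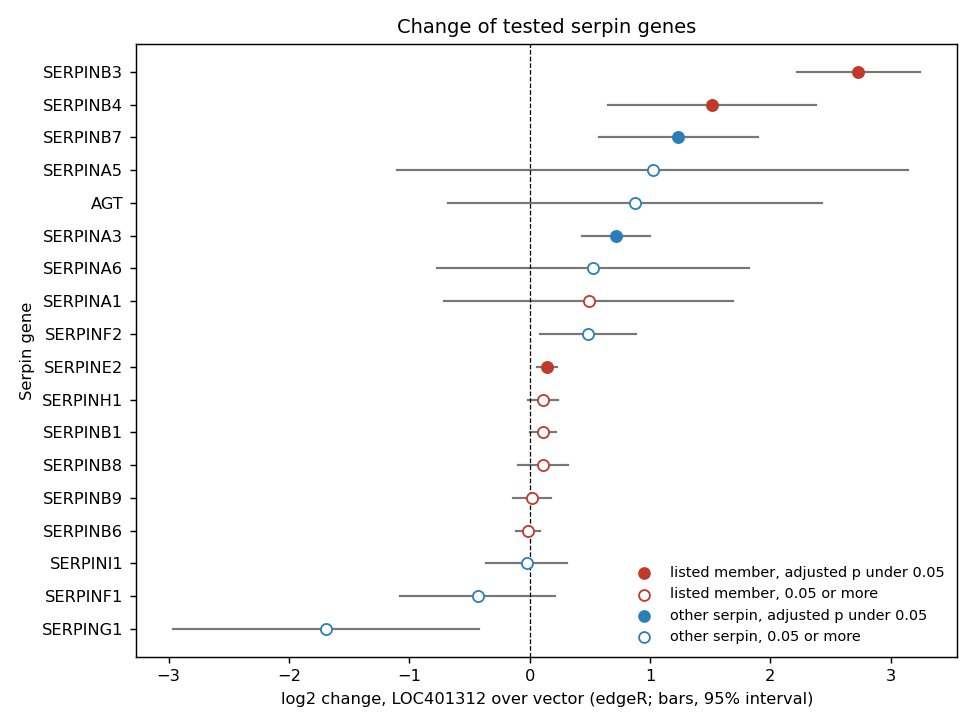
Log2 change, LOC401312 over vector, of tested serpin genes with its 95% interval, the chosen genes in red and the other family genes in blue, filled where the adjusted p was under 0.05. SERPINB3, at 2.73, has the highest estimate, though its interval overlaps those of SERPINB4, SERPINA5 and AGT, and the intervals of the low-count SERPINA1, SERPINA5, SERPINA6 and AGT reach across 0.

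Levels of different genes were compared per length. In FPKM (fragments scaled for length and library total, as deposited) the order in vector was SERPINE2, SERPINH1, SERPINB1, SERPINB6, SERPINB9, SERPINB8, SERPINB3, SERPINB4, SERPINA1 and SERPINB5, and CPM per kilobase of the longest coding transcript gave the same order. SERPINE2 and SERPINH1 did not differ beyond their spread, with 26.1 ± 0.378 and 25.1 ± 1.95 FPKM in LOC401312 and 21.7 ± 1.25 and 21.3 ± 0.319 FPKM in vector (SD, n = 3 each). By CPM per kilobase they were further apart, at 103.9 and 53.1 in LOC401312 and 94.1 and 49.2 in vector. The deposited FPKM rested on a longer length than 1 transcript: counts over FPKM implied 10600 bases for SERPINE2, whose longest coding transcript has 2569 bases, and 15630 bases for SERPINB6, whose longest has 5620 bases. SERPINB3 and SERPINB8 were neighbours in that order. In LOC401312 they stood at 2.02 ± 0.358 and 2.06 ± 0.150 FPKM, a gap within the spread, but at 2.22 and 3.92 CPM per kilobase, where the libraries of the 2 genes did not overlap. In vector they stood at 0.273 ± 0.0306 and 1.75 ± 0.172 FPKM (SD, n = 3 each), and at 0.335 and 3.63 CPM per kilobase.

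Of 26 other serpin family names searched, 20 had a row, 10 of these were tested, 2 passed as higher in LOC401312, 0 passed as lower and 8 did not pass, with a median log2 change of 0.51. Over all tested features 4.13% passed as higher and 4.58% as lower. The median lies between SERPINF2 and the low-count SERPINA6 (0.53, 95% interval -0.77 to 1.82). Above it are also the low-count SERPINA5 and AGT, whose intervals cross 0, so it is imprecise. SERPINA3, alpha-1 antichymotrypsin, an acute-phase inhibitor of cathepsin G, had 13.58, 10.90 and 9.99 CPM in LOC401312 libraries, against 6.85, 6.76 and 7.37 CPM in vector libraries. The groups did not overlap, and it rose by 0.72 (SE 0.127, edgeR adjusted p = 0.00684), a call that held under every setting tried. SERPINB7, a serpin of the epidermis, had 2.71, 2.92 and 2.43 CPM in LOC401312 libraries, against 1.68, 0.954 and 0.764 CPM in vector libraries. The groups did not overlap, and it rose by 1.24 (SE 0.297, adjusted p = 0.0293), but the call was lost without any 1 library other than vector replicate 1.

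The antiplasmin SERPINF2 did not overlap between groups but did not pass (0.49, adjusted p = 0.133), and the neuronal SERPINI1 had a log2 change of -0.02 (adjusted p = 0.952).

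Several low serpin entries moved with libraries that stood apart, and are named after their values were seen. SERPING1, the C1 inhibitor, had 19, 41 and 50 counts in LOC401312 libraries, against 243, 39 and 79 counts in vector libraries, and SERPINF1 had 115, 164 and 114 counts against 276, 119 and 124. Both were highest in vector replicate 1, the library that was also highest in the haematopoietic markers and in LUM, DCN and POSTN. SERPINB2 had 0, 24 and 18 counts in LOC401312 libraries, against 0, 0 and 3 counts in vector libraries, highest in the 2 libraries with trophoblast transcripts. The part of those libraries in these values was not tested further. Without vector replicate 1 the log2 change of SERPING1 was -0.84, against -1.69 with all libraries (adjusted p = 0.103), without vector replicate 2 it passed (adjusted p = 0.0498), and DESeq2 called it with all libraries (adjusted p = 0.0124).

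SERPINB5, SERPINB4, SERPINB3, SERPINB7 and SERPINB8 lie in one cluster at 18q21, where the genes of clade B follow each other. The neighbours on the centromeric side, KDSR, VPS4B and BCL2, did not pass, with log2 changes of -0.01, -0.04 and 0.06. Outside the cluster, beyond SERPINB8 and at a distance not measured here, the cadherin genes CDH7 and CDH19 rose. CDH7 had 5.73, 7.18 and 7.91 CPM in LOC401312 libraries, against 2.44, 2.94 and 2.68 CPM in vector libraries, a log2 change of 1.37 (SE 0.162, adjusted p = 0.000793). CDH19 averaged 4.69 ± 0.481 CPM in LOC401312 and 1.80 ± 0.199 CPM in vector (SD, n = 3 each), a log2 change of 1.38 (SE 0.175, adjusted p = 0.00118). With LOC401312 replicate 1 alone against vector the log2 changes were 1.09 for CDH7 and 1.29 for CDH19, short of the threshold in that smaller fit (adjusted p = 0.109 and 0.0945). Of 14 neighbours listed, 13 were tested, 2 rose, 0 fell and 11 did not pass, with a median of -0.01. SERPINB8, which lies between SERPINB3 and CDH7, did not pass.

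The second cluster, at 6p25, holds SERPINB1, SERPINB9 and SERPINB6, none of which passed. Of its 14 listed neighbours, 13 were tested, 3 fell, 0 rose and 10 did not pass, with a median of -0.11. The forkhead gene FOXQ1 averaged 6.37 ± 0.784 CPM in LOC401312 and 11.8 ± 1.97 CPM in vector (SD, n = 3 each), a log2 change of -0.88 (SE 0.145, adjusted p = 0.00468), and with LOC401312 replicate 1 alone against vector the log2 change was -1.07 (adjusted p = 0.0948). FOXC1 fell by 0.53 (SE 0.109, adjusted p = 0.0144), a call lost without LOC401312 replicate 1 or 2 or vector replicate 3. NQO2, the quinone reductase gene next to SERPINB6, fell by 0.23 (SE 0.056, adjusted p = 0.0315), a call lost without LOC401312 replicate 2 or 3 or vector replicate 2 or 3.

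**Figure D3:**
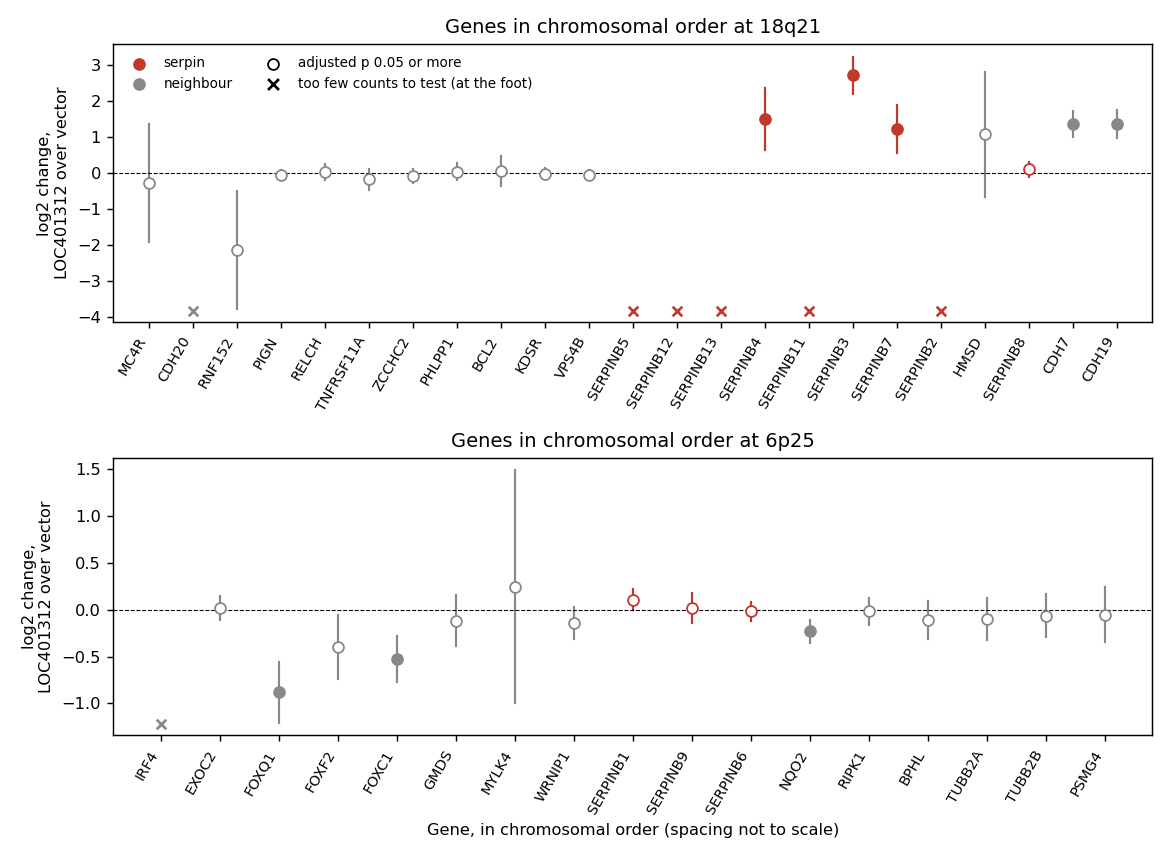
Log2 change with its 95% interval for genes in chromosomal order around the clusters at 18q21 (above) and 6p25 (below), with spacing not to scale. Serpins are in red and neighbours in grey, filled where the adjusted p was under 0.05, with crosses at the foot for genes of too few counts to test. In the upper panel the filled points are SERPINB4, SERPINB3 and SERPINB7 and, outside the cluster beyond SERPINB8, CDH7 and CDH19. In the lower panel the 3 serpins lie near 0 and FOXQ1, FOXC1 and NQO2 lie below it.

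Proteases listed beside the serpins changed in both directions. Of 25 listed, 14 were tested, 2 rose, 1 fell and 11 did not pass, with a median of 0.03. All 3 that passed are lysosomal cysteine cathepsins. Cathepsin L, CTSL, a target of SERPINB3, had 789.3, 787.9 and 736.9 CPM in LOC401312 libraries, against 947.5, 1068 and 1101 CPM in vector libraries. The groups did not overlap, and it fell by 0.43 (SE 0.055, adjusted p = 0.00123). CTSL lies on chromosome 9, where the median log2 level of 494 genes that averaged 4 CPM or more differed by -0.0893 between LOC401312 and vector. With chromosome medians removed CTSL still passed, at -0.34, against -0.43 in the same limma fit without the removal. Cathepsin S, CTSS, another target of SERPINB3, had 61.87, 60.85 and 62.74 CPM in LOC401312 libraries, against 47.64, 50.23 and 46.63 CPM in vector libraries, and rose by 0.36 (SE 0.047, adjusted p = 0.00130). Cathepsin B, CTSB, is on the list, but no serpin is named here as its inhibitor. CTSB averaged 1559 ± 30.4 CPM in LOC401312 and 1229 ± 45.1 CPM in vector (SD, n = 3 each), and rose by 0.34 (SE 0.036, adjusted p = 0.000377). With LOC401312 replicate 1 alone against vector, CTSL had a log2 change of -0.39 (adjusted p = 0.118) and CTSS of 0.36 (adjusted p = 0.117). Urokinase, PLAU, a target of SERPINE2, had a log2 change of -0.04 (adjusted p = 0.672), and the granzyme gene GZMB had 0 CPM in each LOC401312 library, against 1.21, 0 and 0.0325 CPM in vector libraries, the highest again vector replicate 1.

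Of 21 protease inhibitors of other families, 15 were tested, 3 rose, 1 fell and 11 did not pass, with a median of 0.08. The elastase inhibitors of airway epithelium were the clearest. PI3, or elafin, had 9.63, 9.95 and 7.79 CPM in LOC401312 libraries, against 3.66, 3.98 and 4.21 CPM in vector libraries, a log2 change of 1.21 (SE 0.135, adjusted p = 0.000548). SLPI had 28.35, 27.49 and 25.62 CPM in LOC401312 libraries, against 18.30, 18.17 and 17.25 CPM in vector libraries, a log2 change of 0.60 (SE 0.072, adjusted p = 0.000814). Neither gene overlapped between groups, and both calls held under every setting tried. TFPI2, a Kunitz inhibitor of plasmin and trypsin, rose by 0.15 (SE 0.038, adjusted p = 0.0337), a call lost without LOC401312 replicate 2 or 3 or vector replicate 2 or 3. AMBP, the precursor of bikunin, fell by 0.94 (SE 0.224, adjusted p = 0.0280), a call lost without any 1 library other than vector replicate 1. AMBP lies on chromosome 9, and its call was also lost with chromosome medians removed (log2 change -0.83, limma adjusted p = 0.0523). The same limma fit without the removal gave -0.92 (adjusted p = 0.0264).

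The acute-phase list, genes of the liver's response to inflammation that are co-induced with SERPINA1 and SERPINA3, had 17 of 21 genes tested, of which 6 rose, 2 fell and 9 did not pass, with a median of 0.21. SERPINA3 is among the 6. The 5 liver markers summed to 0.132 to 0.494 CPM in LOC401312 and 0 to 0.256 CPM in vector. SAA1, a serum amyloid A apolipoprotein, had 18.13, 19.05 and 18.05 CPM in LOC401312 libraries, against 7.86, 9.32 and 8.52 CPM in vector libraries, a log2 change of 1.10 (SE 0.091, adjusted p = 9.53e-05). SAA2 averaged 10.0 ± 0.339 CPM in LOC401312 and 4.78 ± 0.179 CPM in vector (SD, n = 3 each), a log2 change of 1.07 (SE 0.105, adjusted p = 0.000254). SAA1 and SAA2 are close copies, so the division of reads between them is uncertain. Complement C3 rose by 0.26 (SE 0.039, adjusted p = 0.00296), and the interleukin 6 receptor subunit IL6ST by 0.21 (SE 0.046, adjusted p = 0.0191). IL6ST lost its call without any 1 library other than vector replicate 1, and with LOC401312 replicate 1 alone against vector C3 had a log2 change of 0.32 (adjusted p = 0.0577). Also past the threshold were the fibrinogen chains FGB, which rose by 0.39 (adjusted p = 0.0424), and FGA, which fell by 0.19 (adjusted p = 0.0457). FGB lost its call without any 1 library other than LOC401312 replicate 3, and FGA without any 1 library.

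**Figure D4:**
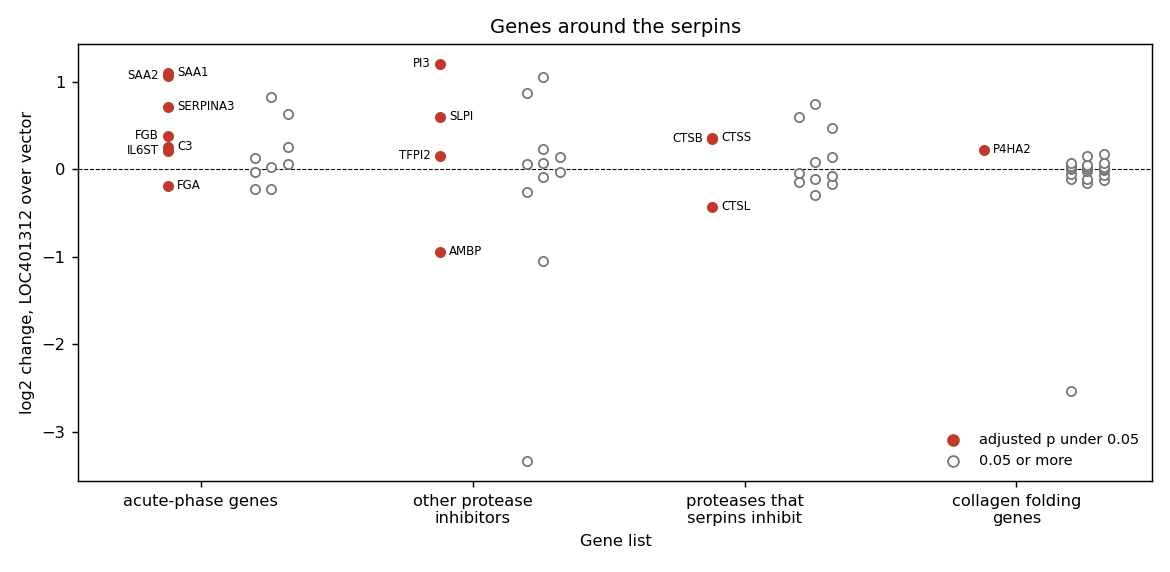
Log2 change of tested genes of 4 lists, with those past an adjusted p of 0.05 in red and named at the left of each list and the others open at its right. SAA1, SAA2 and PI3 lie above 1 on the log2 scale, CTSB and CTSS lie above 0 with CTSL below, and the collagen folding genes lie near 0 apart from a low-count gene at the foot.

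Among genes that fold collagen with SERPINH1, all 22 listed were tested, 1 rose, 0 fell and 21 did not pass, with a median of 0.01. P4HA2, a prolyl 4-hydroxylase subunit, averaged 55.9 ± 2.58 CPM in LOC401312 and 47.8 ± 2.68 CPM in vector (SD, n = 3 each), and rose by 0.23 (SE 0.057, adjusted p = 0.0351), a call lost without any 1 library. Of 13 genes of the type 2 cytokine response, in which airway SERPINB3 and SERPINB4 are known to be induced, 9 were tested, 1 rose, 0 fell and 8 did not pass, with a median of -0.27. IL4R, the interleukin 4 receptor subunit, averaged 63.2 ± 0.728 CPM in LOC401312 and 53.0 ± 3.78 CPM in vector (SD, n = 3 each), and rose by 0.26 (SE 0.056, adjusted p = 0.0192), a call lost without vector replicate 3 or any LOC401312 library. The squamous keratin KRT13 had 0.0709, 0 and 0 CPM in LOC401312 libraries, against 4.55, 4.23 and 4.65 CPM in vector libraries (adjusted p = 8.12e-05), and the squamous regulator TP63 did not pass (log2 change -0.08, adjusted p = 0.696).

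The features whose profile over the 6 libraries was nearest to that of SERPINB3, among 13545 that averaged 1 CPM or more, were found by the root mean square difference of centred log2(CPM + 0.5). They were UGT8 (0.182), SLC6A15 (0.205), ACSS3 (0.262), PCDH7 (0.274) and CDH6 (0.306). The offset of 0.5 CPM is close to the vector level of SERPINB3 and shrinks its ratio of mean CPM of 6.63 to 4.04, while SLC6A15 had 3.73 without and 3.64 with the offset and PCDH7 had 3.13 and 3.02. Likeness to those 2 more abundant genes thus rests in part on the offset. UGT8 had 4.48, 4.66 and 4.25 CPM in LOC401312 libraries, against 0.794, 0.719 and 0.569 CPM in vector libraries, close in level to SERPINB3 as well. For SERPINA1 the nearest were MRPL45P2 (0.073), TRIM66 (0.092), RASGEF1A (0.093), LY6G5B (0.093) and ZFPM2 (0.095), each lowest in LOC401312 replicate 3 or vector replicate 2. The offset exceeds the mean level of SERPINA1 itself, 0.455 CPM in LOC401312 and 0.322 CPM in vector. This is a description of likeness over 6 libraries and no test.

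**Figure D5:**
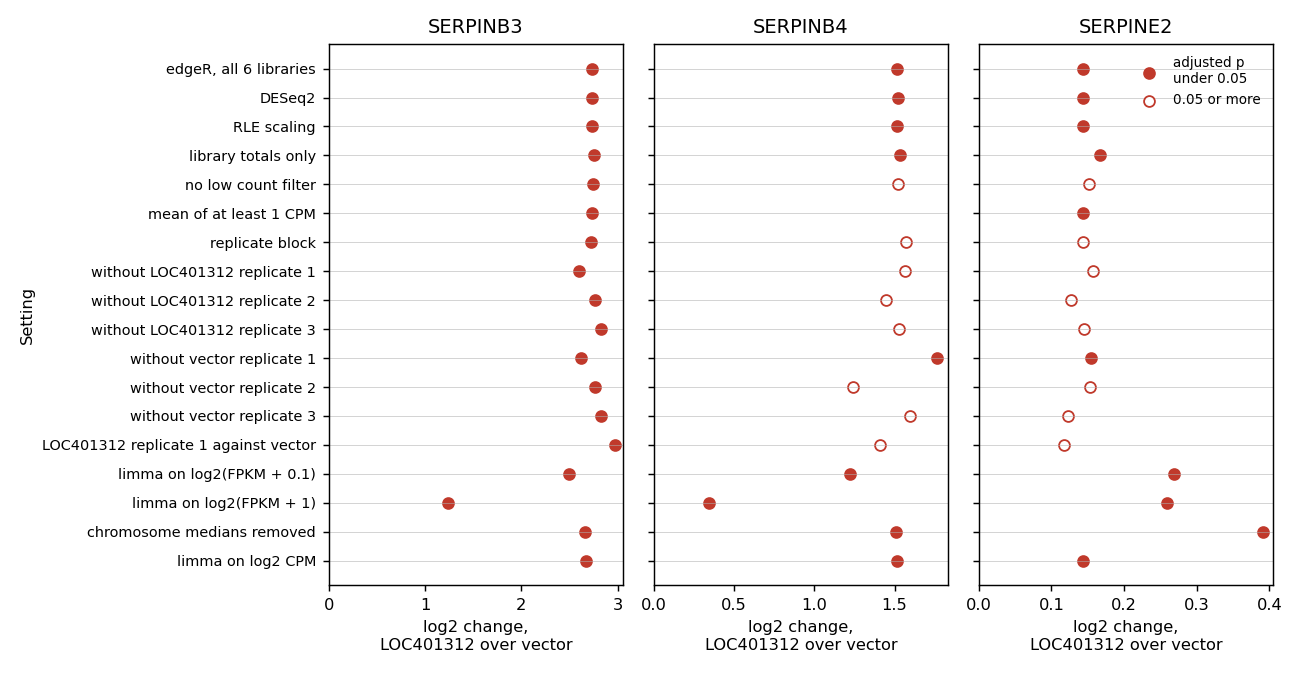
Log2 change of SERPINB3, SERPINB4 and SERPINE2 in the analysis given here (top line) and under other settings, filled where the adjusted p was under 0.05. SERPINB3 is filled on every line, while SERPINB4 and SERPINE2 are open on 8 of them each, most of these with 1 library left out, and SERPINB4 has no value at a mean of at least 1 CPM.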

How the data were processed

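RNA-seq of A549 cells was analysed in 3 LOC401312 and 3 vector libraries, grouped by title. The authors deposited 1 table of raw counts, whole numbers per gene and library, per the file headers. The FPKM values in it, scaled by the authors for length and library total, were used for levels and as an alternative. Per the submitters' processing notes, reads were trimmed with cutadapt 1.9 and the build was GRCh38. The sources used here name no aligner, counter, annotation release or strand setting, and reads of near-identical copies or overlapping genes may be divided arbitrarily.

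Of 38170 features, 4900 had 0 counts everywhere. The 19620 kept by filterByExpr were tested with edgeR 4.0.16 (R 4.3.3; TMM scaling, quasi-likelihood F test on group alone, Benjamini-Hochberg adjustment over all tested, threshold 0.05). The biological coefficient of variation was 17%. Adjusted p-values are from this fit unless another tool is named. SE is the log2 change over the square root of F. The script was tested on simulated data. Each pair of libraries within a group differed beyond sampling noise (chi-square over its degrees of freedom 13.96 to 23.15, for features averaging 50 counts or more) and was kept as separate replicates. An exact permutation test of 3 against 3 libraries cannot go below p = 0.1, and low counts limit the precision of SERPINB4, SERPINA1 and SERPINB5.

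The members, lists and rules were chosen with earlier results of these data known. Named were every member, other serpins past the threshold or with a mean FPKM of at least 1, up to 6 genes per list past the threshold, and the 5 nearest profiles. Alternatives were DESeq2 1.42.0, other scalings and filters, a replicate block, left-out libraries, limma 3.58.1 on FPKM, a threshold of 0.01 and removal of chromosome medians. Limma on log2 CPM and the summed SERPINB3 and SERPINB4 counts were added after the data were seen. Some genes that the naming rule gives, or that a count includes, are not reported here.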

Additional observations from a re-analysis of the deposited data

How the results depend on the processing

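SERPINB3 stayed past the threshold in all 17 alternatives, with log2 changes of 1.24 to 2.97 and of 2.60 to 2.82 with 1 library left out. SERPINB4 and SERPINE2 kept their direction in every alternative that tested them (0.34 to 1.76 and 0.12 to 0.39) but fell short of the threshold in 8 each: with no low count filter, with the replicate block, with each library left out other than vector replicate 1, and with LOC401312 replicate 1 alone. SERPINB6 turned positive with library totals only (0.00847), without vector replicate 3 (0.022) and with limma on log2(FPKM + 0.1) (0.109) or log2(FPKM + 1) (0.0952). SERPINB9 turned negative without LOC401312 replicate 1 (-0.00773) or 2 (-0.00684), without vector replicate 3 (-0.00738) and with chromosome medians removed (-0.0175). SERPINB1 and SERPINH1 passed in limma on FPKM, both at 0.23, but those values carry a shift, with a median of 0.109 over 6137 features of a mean FPKM of at least 5. The split of calls moved with them, to 1639 higher and 308 lower (pseudocount 0.1) or 1625 and 305 (pseudocount 1), against 811 and 899 here, with 5 of the serpins higher under either. With 1 library left out, 832 to 2005 features passed in all, 393 to 963 of them higher and 439 to 1042 lower, with 1 to 3 of the serpins, and SERPINB6 ranged from -0.038 to 0.022 and SERPINB9 from -0.00773 to 0.0778. The replicate block left 1088 features (509 higher, 579 lower) and 1 serpin. Over all tested features, same-numbered libraries did not deviate together (correlations of -0.0484, -0.0238 and -0.022). This gave no sign of pairing by number, but with so few libraries per group it cannot exclude one. LOC401312 replicate 1 alone, taken to vary like the vector libraries, left 175 features (84 higher, 91 lower) and 1 serpin, a threshold of 0.01 left 738 (333 higher, 405 lower) and 1, and no low count filter left 577 lower and 1. DESeq2 called 1246 higher, and removing chromosome medians 505 lower. SERPINB4 was not tested at a mean of at least 1 CPM. Depth limits SERPINA1 and SERPINB5 most. Where no value shows it, the cause of these changes was not tested.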
